A study of Mus musculus with 6 samples.

Results

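The interleukin 1 and 18 receptor family was examined in mouse CD8+ T cells, which are cytotoxic lymphocytes. Its members were taken by gene symbol from a list of 9 genes: Il1r1, Il1r2, Il1rl1, Il1rl2, Il1rap, Il18r1, Il18rap, Sigirr and Il1rn. Of these, 7 had a row among the 14481 genes of the count table and all 7 passed the filter on low counts, which left 14319 genes to test. Il1r1, the signalling receptor for interleukin 1, and Il1rn, the secreted antagonist that blocks it, had no row. The smallest total of any gene in the table was 40 reads over the 6 libraries, and the values of these genes were not analysed here.

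The study compared cells given conditioned medium (CM) from pSTAT3+ astrospheres, called STAT3+ CM, with cells given medium from pSTAT3- astrospheres, called STAT3- CM, with 3 libraries each. STAT3 is a transcription factor switched on by phosphorylation (pSTAT3), and the label refers to the astrospheres that made the medium, not to the T cells. All T cells were wild type and sorted for CD8. Activation for 1 day preceded the medium, on plates coated with anti-CD3 at 1 µg/ml, with anti-CD28 at 1 µg/ml in solution and mouse IL-2 at 0.1 µg/ml; the base was RPMI containing 10% FBS. RNA was taken at day 3, when the medium had been present for 2 days. No library of cells without conditioned medium was analysed here. Nothing in the labels says that the replicates were separate mice or cultures, so a p-value here reflects the spread among these 6 libraries, which may be technical.

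Receptors of the family carry immunoglobulin domains outside the cell and, in the signalling members, a Toll/interleukin 1 receptor (TIR) domain inside it. A ligand-binding chain joins an accessory chain, the paired TIR domains recruit the adaptor MyD88 and the IRAK kinases, and the relay ends in NF-kB and MAP kinases. In CD8+ T cells the family is best known for the interleukin 18 receptor, which with interleukin 12 drives interferon gamma, and for the interleukin 33 receptor, which supports antiviral responses.

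The libraries held 43346089 to 53630514 counts, and members had 61 to 4457 reads in a library. Levels are given as CPM, which divides a gene's reads by the library's TMM-adjusted size, and fold changes are STAT3+ CM over STAT3- CM on the log2 scale with their standard error (SE). Of the cell type marker lists, that of CD8 T cells had the largest sum in both groups. Its 8 genes from Cd8a to Cd5 summed to 2603 to 3317 CPM in STAT3+ CM and 2603 to 2829 CPM in STAT3- CM. The B cell list came next, at 308 to 348 CPM in STAT3+ CM and 279 to 327 CPM in STAT3- CM, most of it from Ighm. On the principal components of all genes, STAT3- CM replicate 3 stood farthest from 0 on the first (-39.6) and STAT3+ CM replicate 1 on the second (38.1). The chi-square per degree of freedom between libraries of STAT3+ CM was 65.5 to 84.9, so by this measure no single library stood apart there. In STAT3- CM it was 21.9 between replicates 1 and 2, but 72.1 and 77.5 between these and replicate 3. Results that rest on STAT3- CM replicate 3 or STAT3+ CM replicate 1 are given with and without them.

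In the group means, transcripts of the interleukin 1 decoy receptor (Il1r2) and of both interleukin 18 receptor chains stood lower in STAT3+ CM, and the other 4 members had log2 fold changes between -0.26 and 0.14. In edgeR's quasi-likelihood test, adjusted over all genes by Benjamini-Hochberg, 0 of the 7 members passed a threshold of 0.05, as did 0% of the genes tested (0 of 14319). At an unadjusted p under 0.05 stood 3 members, all lower in STAT3+ CM, and 521 genes in all (3.64%), of which 329 were lower (2.30%). DESeq2 called 1 member, Il1r2, among 48 genes (0.335%), of which 33 were lower (0.230%). The libraries of the groups did not overlap for 2 members, Il1r2 and Il18rap, both lower in STAT3+ CM. Over all genes tested, 7.95% had groups that did not overlap in either direction, and 4.18% were lower without overlap. The median log2 fold change of the 7 members was -0.26, with 5 negative, against a median of 0.000758 over all genes tested, with 49.8% negative. In bulk RNA, fewer cells that use a gene and less RNA per cell cannot be told apart.

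**Figure D1:**
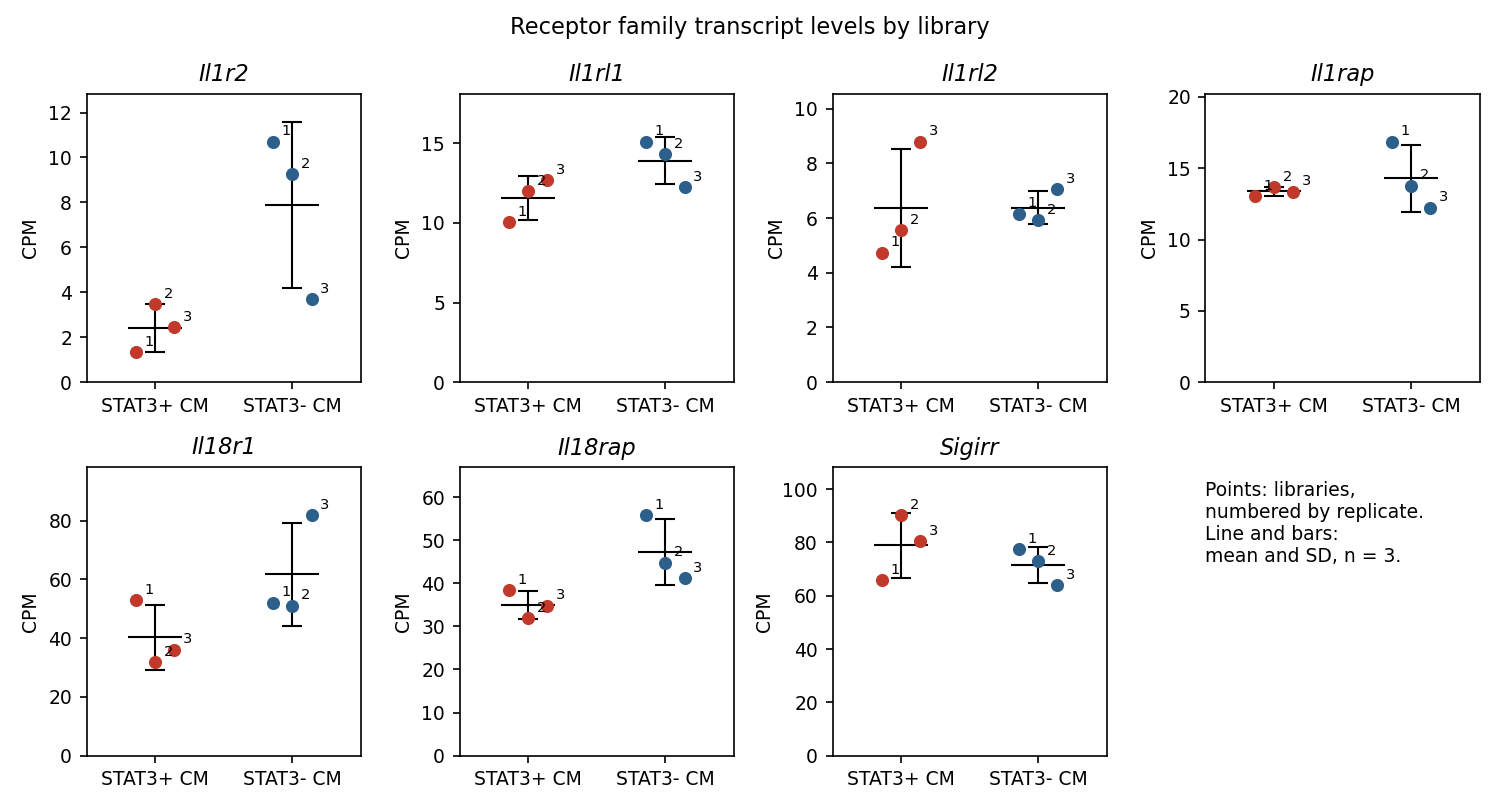
Transcript level in CPM of the 7 receptor family genes in each library, with STAT3+ CM on the left and STAT3- CM on the right of each panel; points are libraries numbered by replicate, lines and bars are the mean and SD of 3 libraries. For Il1r2 the STAT3+ CM libraries lie between 1.34 and 3.48 CPM, all below the STAT3- CM libraries, of which replicate 3 stands at 3.70 CPM.

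Il1r2 encodes the type 2 interleukin 1 receptor, a decoy that binds interleukin 1 but has no TIR domain to signal with. It had 61, 145 and 136 reads in STAT3+ CM replicates 1, 2 and 3, or 1.34, 3.48 and 2.46 CPM. In STAT3- CM replicates 1, 2 and 3 it had 485, 435 and 171 reads, or 10.7, 9.26 and 3.70 CPM. STAT3- CM replicates 1 and 2 stood well above every other library, and replicate 3 stood just above the highest of STAT3+ CM. The means were 2.43 ± 1.07 CPM in STAT3+ CM and 7.89 ± 3.70 CPM in STAT3- CM (SD, n = 3 each), 3.27-fold lower by the fitted fold change. The log2 fold change of Il1r2 was -1.71 (SE 0.42, adjusted p = 0.702 by edgeR) and its p ranked 47 of all genes tested. By DESeq2 the log2 fold change of Il1r2 was -1.69 (SE 0.40), with an adjusted p of 0.0104, a call that edgeR did not make. Counting error was 12.8% for the smallest Il1r2 count and lower for the others, so the spread within groups exceeded it. Gm16894, on the opposite strand, and Gm37347, on the same strand, overlap Il1r2 but share 0 exonic bases with it in GENCODE M21.

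The edgeR call for Il1r2 differed with STAT3- CM replicate 3 left out. Without that library its log2 fold change was -2.05 (SE 0.30) and edgeR called it, with an adjusted p of 0.0419, among 18 genes. With STAT3+ CM replicate 1 omitted as well, the log2 fold change was -1.76 (SE 0.23, adjusted p = 0.0341 by edgeR), among 10 genes called. Leaving out any other single library gave log2 fold changes of -2.03 to -1.43 and no call.

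**Figure D2:**
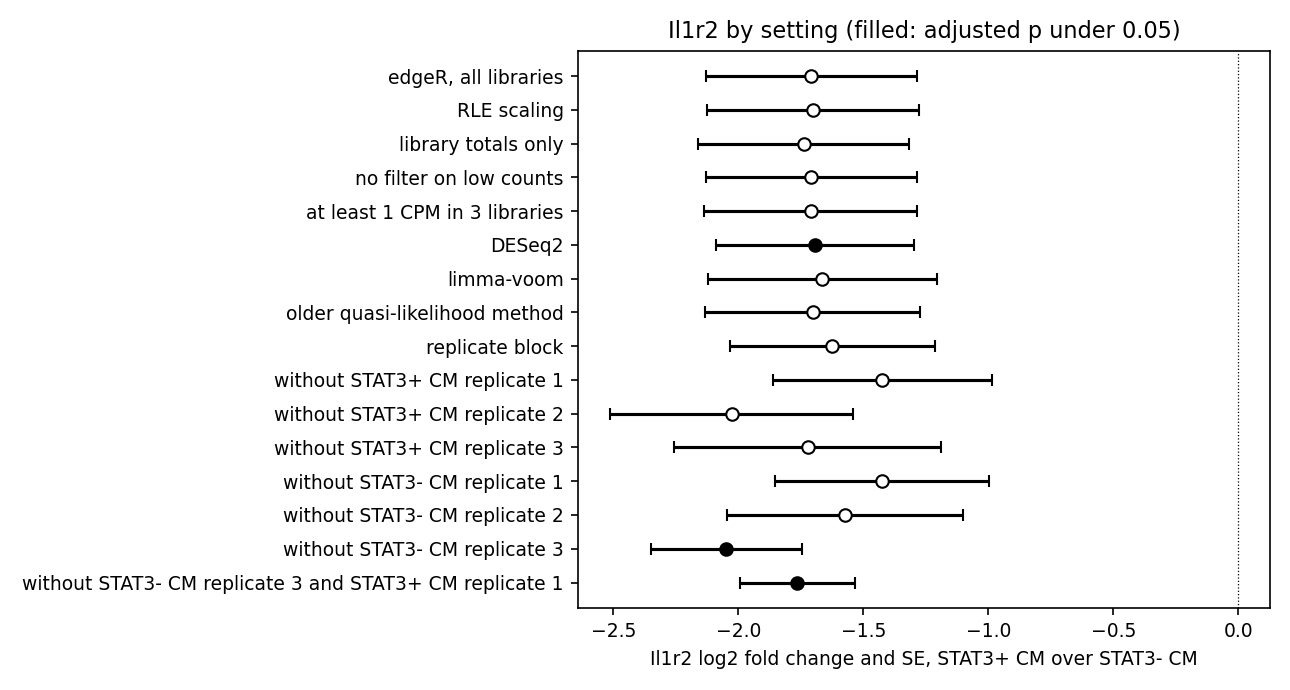
Log2 fold change of Il1r2, STAT3+ CM over STAT3- CM, with its SE under each test, scaling, filter and omission of libraries; filled points have an adjusted p under 0.05. All settings lie below 0, and DESeq2, the fit without STAT3- CM replicate 3 and the fit without that library and STAT3+ CM replicate 1 are filled.

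Because Il1r2 had the largest fold change of the family, the 300 bases around its annotated start are shown, from 250 before to 50 after it, at chr1:40085843-40086142 on the plus strand (RefSeq, GRCm38.p6). Capitals mark matches, on either strand, to the STAT motif TTCNNNGAA, the AP-1 motif TGANTCA and the E-box CACGTG.
Il1r2: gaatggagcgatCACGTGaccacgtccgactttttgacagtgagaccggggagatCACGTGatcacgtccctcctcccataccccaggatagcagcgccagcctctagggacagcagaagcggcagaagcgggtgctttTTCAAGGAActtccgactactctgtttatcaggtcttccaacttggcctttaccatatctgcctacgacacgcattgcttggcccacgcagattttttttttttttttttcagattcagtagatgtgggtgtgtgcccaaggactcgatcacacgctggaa
The window held 1 match to the STAT motif, TTCAAGGAA, and 2 to the E-box, with 0 to the AP-1 motif and no overlap between matches. Of 32851 RefSeq promoter windows of this length, 8.30% held the STAT motif, 7.81% the AP-1 motif and 7.15% the E-box, and a match is not evidence of binding.

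Il18r1 encodes the chain of the interleukin 18 receptor that binds the cytokine. It stood at 52.9, 31.8 and 36.1 CPM in STAT3+ CM replicates 1, 2 and 3, against 52.1, 51.1 and 81.9 CPM in STAT3- CM replicates 1, 2 and 3. STAT3+ CM replicate 1 lay among the STAT3- CM libraries, so the groups overlapped, and STAT3- CM replicate 3 was the highest of all. The log2 fold change of Il18r1 was -0.62 (SE 0.23, adjusted p = 0.989 by edgeR, 0.719 by DESeq2). It was -0.36 (SE 0.20) without STAT3- CM replicate 3 and -0.86 (SE 0.22) without STAT3+ CM replicate 1, and without both -0.60 (SE 0.14, adjusted p = 0.219 by edgeR).

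Il18rap encodes the accessory chain that completes the interleukin 18 receptor and lets it signal. It stood at 38.4, 31.9 and 34.8 CPM in STAT3+ CM replicates 1, 2 and 3, against 55.8, 44.8 and 41.2 CPM in STAT3- CM replicates 1, 2 and 3. The groups did not overlap, although the gap between STAT3+ CM replicate 1 and STAT3- CM replicate 3 was small. The log2 fold change of Il18rap was -0.43 (SE 0.15, adjusted p = 0.989 by edgeR, 0.707 by DESeq2). With each library left out in turn it ran from -0.52 to -0.30 and was not called.

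Both chains stood lower in the group means, but their balance differed more between libraries than between groups. Per kilobase of exon, Il18r1 exceeded Il18rap by 1.93, 1.40 and 1.45 times in STAT3+ CM replicates 1, 2 and 3, and by 1.31, 1.60 and 2.79 times in STAT3- CM replicates 1, 2 and 3. The log2 ratio averaged 0.66 ± 0.25 in STAT3+ CM and 0.85 ± 0.57 in STAT3- CM, a difference of -0.19 (exact two-sided permutation test, p = 0.700, where 0.1 is the smallest value possible with these libraries). Without STAT3- CM replicate 3 the difference was 0.13.

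The genes of both chains lie side by side, and their start regions are shown for comparison with that of Il1r2, with the same motifs in capitals. RefSeq lists several starts for Il18r1; the window printed, at chr1:40465756-40466055 on the plus strand of GRCm38.p6, is the 1 that held a match to any of the 3 motifs, and was chosen for that. The Il18rap window is at chr1:40515112-40515411 on the plus strand.
Il18r1: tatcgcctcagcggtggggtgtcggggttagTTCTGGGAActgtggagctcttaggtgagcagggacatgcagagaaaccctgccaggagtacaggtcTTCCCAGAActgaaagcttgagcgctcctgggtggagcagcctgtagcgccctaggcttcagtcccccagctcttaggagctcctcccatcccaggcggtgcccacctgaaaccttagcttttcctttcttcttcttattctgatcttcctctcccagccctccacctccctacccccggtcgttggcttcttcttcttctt
Il18rap: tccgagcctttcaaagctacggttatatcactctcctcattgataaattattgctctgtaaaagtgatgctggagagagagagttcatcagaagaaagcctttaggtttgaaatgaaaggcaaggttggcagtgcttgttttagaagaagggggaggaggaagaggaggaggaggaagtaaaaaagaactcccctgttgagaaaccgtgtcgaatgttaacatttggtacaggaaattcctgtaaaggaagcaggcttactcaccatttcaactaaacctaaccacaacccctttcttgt
The Il18r1 window held 2 matches to the STAT motif, TTCTGGGAA and TTCCCAGAA, while the Il18rap window held 0 matches to the 3 motifs. No match says only that these letters are not in this window.

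Il1rl1 encodes ST2, the receptor for interleukin 33. It stood at 10.0, 12.0 and 12.7 CPM in STAT3+ CM replicates 1, 2 and 3, against 15.1, 14.3 and 12.3 CPM in STAT3- CM replicates 1, 2 and 3. The groups overlapped through STAT3- CM replicate 3, and the log2 fold change of Il1rl1 was -0.26 (SE 0.16, adjusted p = 0.989 by edgeR). Il1rl2, the receptor for interleukin 36, stood at 4.74, 5.55 and 8.79 CPM in STAT3+ CM and at 6.16, 5.92 and 7.06 CPM in STAT3- CM, each in the order of replicates 1, 2 and 3. Its highest and lowest libraries were both of STAT3+ CM, and its log2 fold change was 0.01 (SE 0.25, adjusted p = 0.999 by edgeR).

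Il1rap encodes the accessory chain that the receptors for interleukins 1, 33 and 36 share. It was the steadiest member in STAT3+ CM, at 13.1, 13.7 and 13.4 CPM in replicates 1, 2 and 3, against 16.9, 13.8 and 12.2 CPM in STAT3- CM replicates 1, 2 and 3. Its log2 fold change was -0.10 (SE 0.16, adjusted p = 0.989 by edgeR). In the GENCODE M21 annotation its exons share 552 bases with those of Gm20319 on the opposite strand, and whether the counting used strand is not given in the sources used here.

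Sigirr encodes a single-immunoglobulin receptor that dampens interleukin 1 and Toll-like receptor signalling. It stood at 65.8, 90.2 and 80.5 CPM in STAT3+ CM replicates 1, 2 and 3, against 77.5, 73.0 and 64.0 CPM in STAT3- CM replicates 1, 2 and 3. The groups overlapped, and the log2 fold change of Sigirr was 0.14 (SE 0.14, adjusted p = 0.989 by edgeR).

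**Figure D3:**
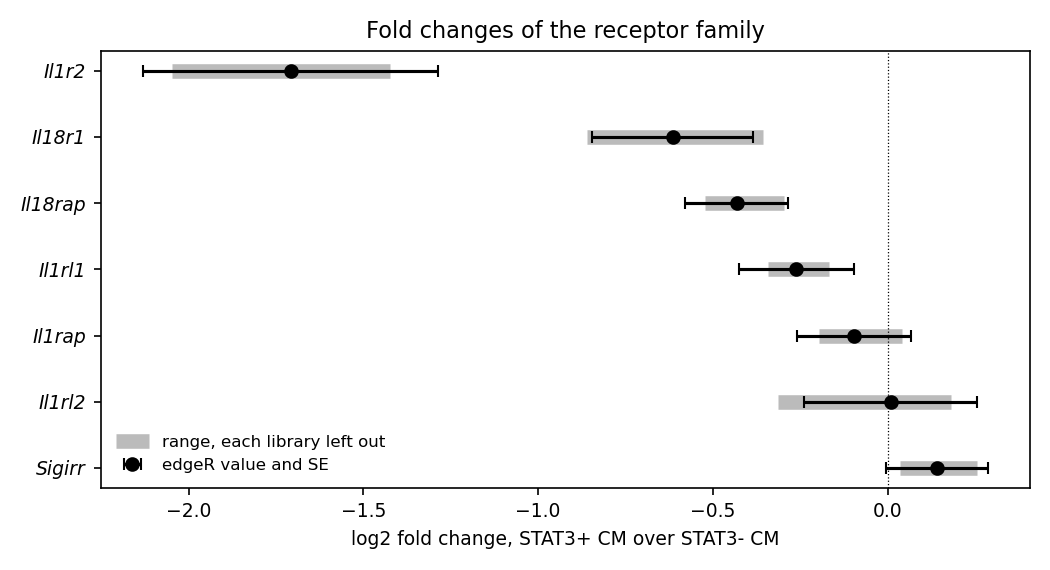
Log2 fold change of the 7 receptor family genes, STAT3+ CM over STAT3- CM, by edgeR with its SE (points and bars) and the range with each library left out in turn (grey). Il1r2, Il18r1, Il18rap and Il1rl1 stay below 0 over their grey ranges and Sigirr above it, while the ranges of Il1rap and Il1rl2 cross 0.

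Set per kilobase of exon (RPKM, from the same counts), Sigirr was the most abundant member in every library, at 25.9 ± 4.04 RPKM in STAT3+ CM and 23.5 ± 2.27 RPKM in STAT3- CM (SD, n = 3 each). Il18r1 came next, at 8.36 ± 2.32 RPKM in STAT3+ CM and 12.8 ± 3.63 RPKM in STAT3- CM, followed by Il18rap at 5.19 ± 0.487 RPKM in STAT3+ CM and 7.0 ± 1.13 RPKM in STAT3- CM. These 3 kept this order in all 6 libraries. Below them the order differed between the groups: Il1r2 had 1.27 ± 0.561 RPKM in STAT3+ CM and 4.14 ± 1.94 RPKM in STAT3- CM, while Il1rl1 had 1.68 ± 0.199 RPKM in STAT3+ CM and 2.02 ± 0.213 RPKM in STAT3- CM. Il1r2 stood above Il1rl1 in 1 of 3 libraries of STAT3+ CM and in 3 of 3 of STAT3- CM. Il1rap, at 1.18 ± 0.0277 RPKM in STAT3+ CM and 1.26 ± 0.208 RPKM in STAT3- CM, and Il1rl2, at 0.934 ± 0.315 RPKM in STAT3+ CM and 0.936 ± 0.0883 RPKM in STAT3- CM, were lowest, and in STAT3+ CM neither differed from Il1r2 beyond the spread. Lengths are unions of all exons in GENCODE M21, which understates genes with many alternative exons such as Il1rap.

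Of the summed RPKM of the 7 members, Sigirr made up 58.0% ± 6.37 in STAT3+ CM and 45.4% ± 2.98 in STAT3- CM. Its share in every library of STAT3+ CM (51.1% to 63.7%) was above every library of STAT3- CM (42.1% to 47.7%). Il1r2 made up 2.82% ± 1.13 in STAT3+ CM and 7.93% ± 3.52 in STAT3- CM. Shares of a common total depend on each other, and the CPM of Sigirr itself overlapped between the groups.

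Il1r2, Il1r1, Il1rl2, Il1rl1, Il18r1 and Il18rap form an unbroken run of protein-coding genes on chromosome 1, in this order, while Il1rap lies on chromosome 16, Sigirr on chromosome 7 and Il1rn on chromosome 2 (RefSeq, GRCm38.p6). Within the run, the log2 fold changes were -1.71 for Il1r2, 0.01 for Il1rl2, -0.26 for Il1rl1, -0.62 for Il18r1 and -0.43 for Il18rap. Lower values thus stood at both ends of the run, with Il1rl2 between them. Of the 6 genes beside the run that could be tested, 0 had an unadjusted p under 0.05 by edgeR. Map4k4, a kinase gene next to Il1r2, had a log2 fold change of -0.21 (SE 0.13), Rnf149, a ubiquitin ligase gene, -0.36 (SE 0.20), which was -0.085 without STAT3- CM replicate 1, and Mrps9, a mitochondrial ribosomal protein gene, 0.17 (SE 0.13).

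Genes of the pathway around the receptors showed few differences. Of 71 pathway genes tested, 0 passed by edgeR and 0 by DESeq2, and 4 (5.63%) had an unadjusted p under 0.05, against 3.64% of all genes tested. Among the ligands, Il1a, the gene of interleukin 1 alpha, stood at 0.617, 1.63 and 1.93 CPM in STAT3+ CM replicates 1, 2 and 3, against 6.51, 2.96 and 2.30 CPM in STAT3- CM replicates 1, 2 and 3. All libraries of STAT3+ CM lay below those of STAT3- CM for Il1a, where 4.18% of all genes tested were lower without overlap. The log2 fold change of Il1a was -1.47 (SE 0.47, adjusted p = 0.989 by edgeR, 0.198 by DESeq2). Without STAT3- CM replicate 1, by far its highest library, it was -0.89 (SE 0.40). Il18, Il33 and Il18bp, whose product binds and blocks interleukin 18, were the other ligand genes with a row and stood at means of 0.848 to 3.21 CPM in STAT3+ CM and 0.816 to 2.51 CPM in STAT3- CM, with log2 fold changes of -0.14 (SE 0.29), 0.27 (SE 0.48) and 0.34 (SE 0.29). Il1b had no row.

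Between receptor and nucleus, 12 adaptor and IRAK genes had 8 positive and 4 negative log2 fold changes, 18 genes of the TAK1, IKK and MAP kinase relay had 7 and 11, and 14 genes of NF-kB and its feedback had 4 and 10. None of these 44 genes had an unadjusted p under 0.05. The smallest p-values were those of Irak1bp1 (log2 fold change 0.33, SE 0.20), Traf6 (-0.21, SE 0.12) and Ecsit (0.14, SE 0.12) among the adaptors. In the relay they were those of Tab2 (-0.23, SE 0.14), Map3k3 (-0.20, SE 0.15) and Map2k3 (-0.20, SE 0.17). Among the NF-kB genes they were those of Nfkb2 (-0.28, SE 0.15), Nfkb1 (-0.23, SE 0.13) and Relb (-0.21, SE 0.14), which encode NF-kB subunits. Of 10 genes of ligand maturation and receptor shedding, 4 were positive, 6 negative and 0 had an unadjusted p under 0.05, with Casp1, the protease that matures interleukins 1 beta and 18, at -0.34 (SE 0.17), Adam17, a sheddase, at -0.15 (SE 0.13) and Casp8 at 0.14 (SE 0.14).

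Among 13 genes that act with interleukin 18 in the interleukin 12 response, 3 had an unadjusted p under 0.05 by edgeR, where 3.64% of all genes tested did, and 0 passed after adjustment. Of the 3, 2 were higher and 1 lower, against 1.34% and 2.30% of all genes. Gadd45g, a stress-response gene induced by both cytokines, stood at 77.4 ± 2.89 CPM in STAT3+ CM and 56.6 ± 10.9 CPM in STAT3- CM (log2 fold change 0.45, SE 0.15). All its libraries of STAT3+ CM lay above those of STAT3- CM, where 7.95% of all genes tested had no overlap in either direction. Tbx21, which encodes the transcription factor T-bet, had a log2 fold change of 0.42 (SE 0.17) and Jak2, a kinase of the interleukin 12 receptor, -0.34 (SE 0.15). Ifng stood at 1023 ± 28.1 CPM in STAT3+ CM and 915 ± 212 CPM in STAT3- CM, with a log2 fold change of 0.16 (SE 0.17).

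Il1r1 and Il1rl1 are markers of type 17 and type 2 lymphocytes in other settings, so genes of those programs were set beside the family. Of 8 type 17 genes tested, 6 were negative with a list median of -0.70, and 4 had an unadjusted p under 0.05, all lower, where 2.30% of all genes did. Among them were Ccr6, a chemokine receptor gene (-1.38, SE 0.37), Rora, a nuclear receptor gene (-0.75, SE 0.23), and Ahr, the aryl hydrocarbon receptor gene (-0.65, SE 0.26). The groups did not overlap for Ccr6, Rora and Ahr, where 4.18% of all genes tested were lower without overlap. By edgeR or DESeq2, 0 genes of the type 17 list passed. Of 7 type 2 and interleukin 9 genes tested, 6 were negative and 2 had an unadjusted p under 0.05, both lower, where 2.30% of all genes were. Il9r, the interleukin 9 receptor gene, stood at 0.673 ± 0.134 CPM in STAT3+ CM and 2.48 ± 0.365 CPM in STAT3- CM. Its log2 fold change was -1.86 (SE 0.29), which DESeq2 called (adjusted p = 7.5e-05) and edgeR did not (adjusted p = 0.127). Ccr4, a chemokine receptor gene, had -0.69 (SE 0.27). Areg, which encodes a growth factor, had -0.63 (SE 0.43). These lists were chosen with earlier results of these data known, and their direction is not independent evidence.

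**Figure D4:**
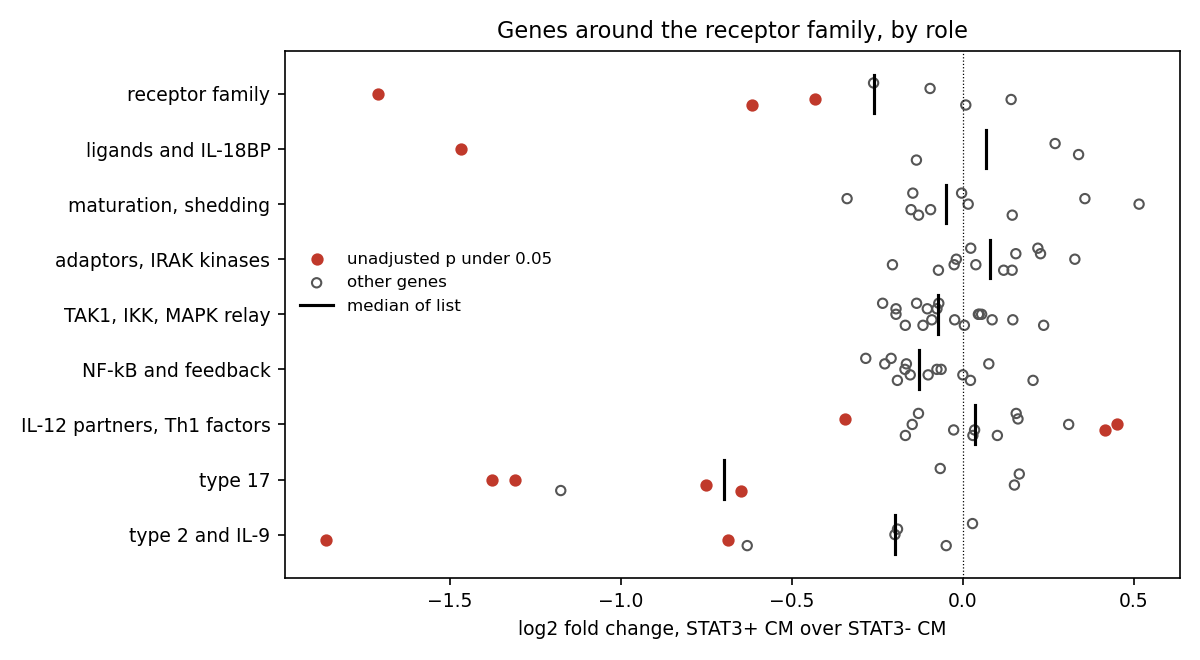
Log2 fold change, STAT3+ CM over STAT3- CM, of each tested gene of the receptor family and of the lists around it; filled points have an unadjusted p under 0.05 by edgeR and vertical bars are list medians. The median is -0.26 for the receptor family and -0.70 for the type 17 genes, and the adaptor, relay and NF-kB genes lie within 0.35 of 0.

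The genes with a profile most like a member's were found as those with the smallest root mean square difference of log2 CPM over the 6 libraries, each gene centred on its mean, among 10786 genes. Nearest to Il1r2 were Rxra, which encodes a retinoid X receptor (0.222), the chemokine gene Ccl22 (0.232) and the MHC class II gene H2-Aa (0.249), where the SD of Il1r2 itself was 1.13. Nearest to Il18r1 were Cystm1 (0.119), Gpt2, a transaminase gene (0.132), and Dapk2, a kinase gene (0.136), with an SD of 0.481. Nearest to Il18rap were Mbp (0.0544), the cell cycle repressor gene E2f7 (0.0747) and Arhgap17 (0.0920), with an SD of 0.286. The log2 fold changes of the genes nearest to Il1r2 were -1.62 (SE 0.40) for Rxra, -1.90 (SE 0.49) for Ccl22 and -1.74 (SE 0.37) for H2-Aa. Values close to that of Il1r2 follow from how these genes were chosen, over the same libraries, and support nothing about it.

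Myeloid and regulatory T cells can also carry Il1r2, so their markers were read beside it. Of the neutrophil list, 1 of 10 genes had a row, and it summed to 0.507 to 1.11 CPM in STAT3+ CM and 0.684 to 1.09 CPM in STAT3- CM, with the defining S100a8, S100a9 and Ly6g without a row. Of the macrophage list, 4 of 12 genes had a row and summed to 3.63 to 5.60 CPM in STAT3+ CM and 3.70 to 10.3 CPM in STAT3- CM, where Csf1r and the C1q genes had none. Of the dendritic cell list, 3 of 8 genes had a row and summed to 47.5 to 62.1 CPM in STAT3+ CM and 52.7 to 71.7 CPM in STAT3- CM, where Flt3, Clec9a and Xcr1 had none. Batf3, which activated T cells also express, made up most of that sum. Zbtb46, a transcription factor gene of that list, stood at 7.58, 9.97 and 13.1 CPM in STAT3+ CM replicates 1, 2 and 3, against 13.97, 14.07 and 18.9 CPM in STAT3- CM replicates 1, 2 and 3. All libraries of STAT3+ CM lay below those of STAT3- CM for Zbtb46, where 4.18% of all genes tested were lower without overlap. Its log2 fold change was -0.61 with an SE of 0.22 (adjusted p = 0.989, edgeR). Within STAT3- CM, Zbtb46 was highest in replicate 3, where Il1r2 was lowest. Within STAT3+ CM, replicate 1 was the lowest library for both genes. Of the same list, Itgax stood at 0.920 ± 0.175 CPM in STAT3+ CM and 0.955 ± 0.167 CPM in STAT3- CM. Batf3 stood at 42.4 ± 9.03 CPM in STAT3+ CM and 46.8 ± 9.61 CPM in STAT3- CM. H2-Aa and Ccl22, which antigen-presenting cells express strongly, were among the genes nearest to Il1r2. All 6 genes of the CD4 and regulatory T cell list had a row and summed to 27.2 to 51.8 CPM in STAT3+ CM and 27.8 to 70.0 CPM in STAT3- CM, with Cd4 at 1.26 ± 0.245 CPM in STAT3+ CM and 1.03 ± 0.517 CPM in STAT3- CM and Foxp3 at 1.81 ± 0.898 CPM in STAT3+ CM and 1.31 ± 0.140 CPM in STAT3- CM. In STAT3- CM replicate 3, the lowest library of its group for Il1r2, the macrophage sum and the CD4 and regulatory T cell sum rested on few genes. There Cd68 made up 9.53 of the 10.3 CPM of the macrophage sum, and Ikzf2 (38.4 CPM) and Zbtb7b (20.2 CPM) most of the CD4 and regulatory T cell sum. The macrophage genes with a row differed in direction there. Adgre1, which failed the filter on low counts, stood in that library at 0.0866 CPM, against 0.508 and 0.426 CPM in STAT3- CM replicates 1 and 2. In the same order, Cd14 stood at 0.173 CPM against 0.243 and 0.213 CPM, and Lyz2 at 0.541 CPM against 1.08 and 0.234 CPM. Cd68 stood at 9.53 CPM against 3.18 and 2.83 CPM. In STAT3+ CM replicates 1, 2 and 3, Adgre1 stood at 0.0220, 0.144 and 0.126 CPM. Its means were 0.0975 CPM in STAT3+ CM and 0.340 CPM in STAT3- CM. In the same order of groups, the means were 0.446 and 0.619 CPM for Lyz2 and 3.82 and 5.18 CPM for Cd68. For Cd14, which was higher in STAT3+ CM, they were 0.273 and 0.210 CPM. H2-Aa stood in STAT3- CM replicate 3 at 2.40 CPM, against 4.77 and 5.28 CPM in STAT3- CM replicates 1 and 2. As H2-Aa was chosen for a profile like that of Il1r2, its low value in the same library follows from the choice. Of the mast cell and basophil list, which covers other cells with Il1rl1, 1 of 8 genes had a row, Kit, at 1.68 to 3.59 CPM in STAT3+ CM and 1.62 to 3.05 CPM in STAT3- CM. The part of such cells in the results for Il1r2 and Il1rl1 was not tested.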

How the data were processed

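Polyadenylated RNA of 6 libraries was sequenced from 500 ng of total RNA with a directional kit, per the labels. The authors deposited raw counts of reads for each gene symbol. Tools listed in the submitters' processing notes are Cufflinks 2.2.1, SAMtools 0.1.19, TopHat2 2.0.10, FastQC and Bowtie 1.0.0, with the build GRCm39. Which program counted reads, with what annotation, strand setting and low-count filter, is not given in the sources used here.

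Counts were filtered with filterByExpr, scaled by TMM and compared in edgeR 4.0.16 (R 4.3.3) by the robust quasi-likelihood test, two-sided, with Benjamini-Hochberg adjustment over 14319 genes and a threshold of 0.05. Each SE was derived from the fold change and its F statistic. Log2 CPM used a prior count of 2. The workflow was tested on simulated data. Alternatives were DESeq2 1.42.0, limma-voom (limma 3.58.1), the older quasi-likelihood method, other scalings and filters, a replicate block and omission of libraries. Replicates of a group differed beyond counting noise, with a chi-square per degree of freedom of 21.9 or more. Exon lengths came from GENCODE M21 and gene order and promoters from RefSeq, both on GRCm38, and 8 of 9 members had a promoter entry.

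Members, gene lists and tests were chosen with earlier results of these data known. Genes named were the members, all ligand genes with a row, the 3 smallest p-values of each list, and the 3 genes most like Il1r2, Il18r1 and Il18rap with at least 1 CPM; Ahr, Ifng and the markers were named besides, after their values were seen. A further gene that this rule names is not reported here. The ratio of Il1r2 to Il1r1 was planned and not computed, as Il1r1 had no row.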

Additional observations from a re-analysis of the deposited data

How the results depend on the processing

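Under 15 alternatives Il1r2, Il18r1, Il18rap and Il1rl1 kept negative and Sigirr positive log2 fold changes, and the pathway genes that could be tested gave 0 calls in each; Il18 and Il33 gave no value with a minimum of 1 CPM in 3 libraries. DESeq2 called 48 genes and 1 member, Il1r2. With each library left out in turn, edgeR called 0 to 18 genes and 0 to 1 members. Of these fits, the one without STAT3- CM replicate 1 called 1 gene, which is not a member, and the one without STAT3- CM replicate 3 called 18, with Il1r2. With STAT3+ CM replicate 1 omitted as well, it called 10, with Il1r2. Over the alternatives the adjusted p of Il1r2 ran from 0.0104 to 1. Il1rl2, close to 0 at 0.01, turned to -0.025 with library totals only, -0.030 by limma-voom, -0.0022 by the older quasi-likelihood method and -0.041 with the replicate block; it ran from -0.31 to 0.18 with each library left out and was 0.26 in the fit that omits that pair of libraries. On the same terms Il1rap ran from -0.20 to 0.040, Il33 from -0.092 to 0.98, Il18 from -0.25 to 0.015 and the log2 ratio of Il18r1 to Il18rap from -0.42 to 0.13; Il18 was 0.011 without the pair. Small fold changes of genes that were not called also moved with 1 library: without STAT3- CM replicate 1 that of Areg was -0.18 and that of Map2k3 -0.010, and without STAT3+ CM replicate 1 that of Casp8 was 0.011. Sigirr ran from 0.034 to 0.26 and Il1rl1 from -0.34 to -0.17. The cause was not tested.

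The main test did not pair libraries by their replicate numbers, and whether they were paired is not given in the labels. After group means were removed, same-numbered libraries correlated across genes at -0.261, 0.281 and 0.182. Correlations between libraries of different numbers were not computed for comparison, so these values cannot decide whether pairing was present. With the replicate block edgeR called 0 genes and 0 members, and the log2 fold change of Il1r2 was -1.62 (SE 0.41). Il1r2, with as few as 61 reads, is the member whose depth limits it most.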

Other observations

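Il1r2 and Il18r1 stood at opposite ends in the same libraries. STAT3+ CM replicate 1 had the lowest Il1r2 and the highest Il18r1 of its group, 1.10 below and 0.64 above the mean of the other libraries of that group on the log2 scale. STAT3- CM replicate 3 likewise had the lowest Il1r2 and the highest Il18r1 of its group, 1.42 below and 0.67 above. Per kilobase, Il18r1 exceeded Il1r2 by 15.6, 3.61 and 5.82 times in STAT3+ CM replicates 1, 2 and 3 and by 1.93, 2.18 and 8.76 times in STAT3- CM replicates 1, 2 and 3. This pair was chosen after its values were seen.

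Il12rb2, which encodes the signalling chain of the interleukin 12 receptor, was also highest in those libraries, at 149, 49.0 and 79.9 CPM in STAT3+ CM replicates 1, 2 and 3 and 46.3, 67.5 and 199 CPM in STAT3- CM replicates 1, 2 and 3. Ikzf2, which encodes the transcription factor Helios, stood at 23.99, 8.12 and 12.9 CPM in STAT3+ CM and 10.6, 10.8 and 38.4 CPM in STAT3- CM, in the order of replicates 1, 2 and 3. Neither separated the groups, with log2 fold changes of -0.17 (SE 0.54) and -0.41 (SE 0.54). Both were picked after their values were seen.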
